A study of Mus musculus with 12 samples.

Results

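The clustered protocadherins (Pcdh) are 3 tandem arrays of cell adhesion genes on mouse chromosome 18, named alpha, beta and gamma. They were taken as the protein-coding genes of GENCODE M21 (genome build GRCm38) on that chromosome whose names carry an alpha, beta or gamma prefix and a number. The rule found 57 of 21951 protein-coding genes, with 14 in the alpha cluster, 22 in the beta cluster and 21 in the gamma cluster, and it used no measured value. The alpha genes spanned positions 36930184 to 37187661 (257 kb), the beta genes 37264938 to 37524479 (260 kb) and the gamma genes 37661793 to 37841873 (180 kb). Neighbouring members of a cluster started a median of 7323 bp apart in alpha, 7781 bp in beta and 5346 bp in gamma. The name Pcdha11 belongs to 2 gene identifiers, called here copy 1 (ENSMUSG00000007440.10) and copy 2 (ENSMUSG00000102206.5) in genome order.

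Each alpha and gamma member has its own promoter and a large variable exon that encodes the outside of the protein, and these exons are spliced to constant exons shared by the whole cluster. Beta genes have no constant exons. In many neurons, members are switched on in small random sets, a choice that involves CTCF and cohesin looping of a promoter to a distant enhancer, and the resulting mixture of adhesion proteins lets a neurite tell itself from its neighbours. The C-type members at the ends of the alpha and gamma arrays are known to be expressed more evenly among neurons than the others.

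H3K4me3, the trimethylated lysine 4 of histone H3 found at active and poised promoters, was mapped by CUT&Tag, in which an antibody directs a transposase to the marked chromatin. Nuclei came from the medial (MGE), lateral (LGE) and caudal (CGE) ganglionic eminences and from the cortex (CTX) of untreated wild-type C57BL/6J embryos. CUT&Tag is described for tissue of embryonic day 12.5, while the dissection protocol in the labels names days 12.5 and 14.5. The 12 libraries were labelled as 2 replicates per region and comprised 3 from MGE, 2 from LGE, 4 from CGE and 3 from CTX. That protocol also says that nuclei of the 4 regions were mixed in equal numbers before dilution, whereas each library is labelled with 1 region; the labels were used as given. The replicates were merged before peaks were called, so each region had 1 peak list, no replicate error could be computed and no comparison below carries a test. Peak numbers were 25339 (MGE), 17284 (LGE), 17752 (CGE) and 21442 (CTX).

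At regional marker genes, the presence of a promoter peak only partly followed the labels. Nkx2-1, a transcription factor that specifies the MGE, had a widest promoter peak of 1718 bp (MGE), 2934 bp (LGE) and 3804 bp (CGE) and none in CTX. Lhx6, its target in MGE-derived interneurons, had peaks of 1301, 1943 and 5069 bp in the same lists and none in CTX. Neurod2, a factor of cortical excitatory neurons, had a peak in CTX (1096 bp), LGE (2323 bp) and CGE (2226 bp) and none in MGE. Nr2f2, a CGE factor, had peaks of 6944 bp (CGE), 4484 bp (LGE), 1411 bp (CTX) and 1117 bp (MGE). Dlx2, a ganglionic eminence factor, and Emx1, a cortical factor, also had a peak in all 4 lists. The lists differ in peak width and depth, and differences at these genes were not tested.

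A member was called marked when a peak shared at least 1 bp with the 1 kb either side of any of its annotated transcript starts. The 57 members had 86 starts, no windows of neighbouring members overlapped and no peak served 2 members. In MGE, 8 members were marked (14.0%, Wilson 95% interval 7.29 to 25.3), beside 61.1% of all protein-coding genes. In LGE, 18 were marked (31.6%, 21 to 44.5) beside 61.6%. In CGE, 17 were marked (29.8%, 19.5 to 42.7) beside 61.9%, and in CTX 9 (15.8%, 8.54 to 27.4) beside 60.6%. Thus the share of marked protocadherin promoters was below the genome-wide share in every list, while the genome-wide share itself differed little among the lists. These intervals cover counting error only. Sequencing depth, summed over the replicates listed in the study's methods, was lowest for MGE and highest for CGE. CTX, for which 1 depth is printed with a digit missing or a comma misplaced, was about as deep as LGE or deeper. The median −log10 q at marked protein-coding promoters was nonetheless 23 in CTX and 65.7 in LGE. The part of depth in these counts was not tested. Read numbers per peak are unknown, and a promoter without a listed peak may carry the mark below the caller's threshold. In nuclei from whole tissue, a mark in fewer cells and less of it per cell cannot be told apart. The MGE count fell to 5 when peaks of a −log10 q under 2 were left out, and to 5 when every list was limited to 17284 peaks by fold enrichment.

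**Figure D1:**
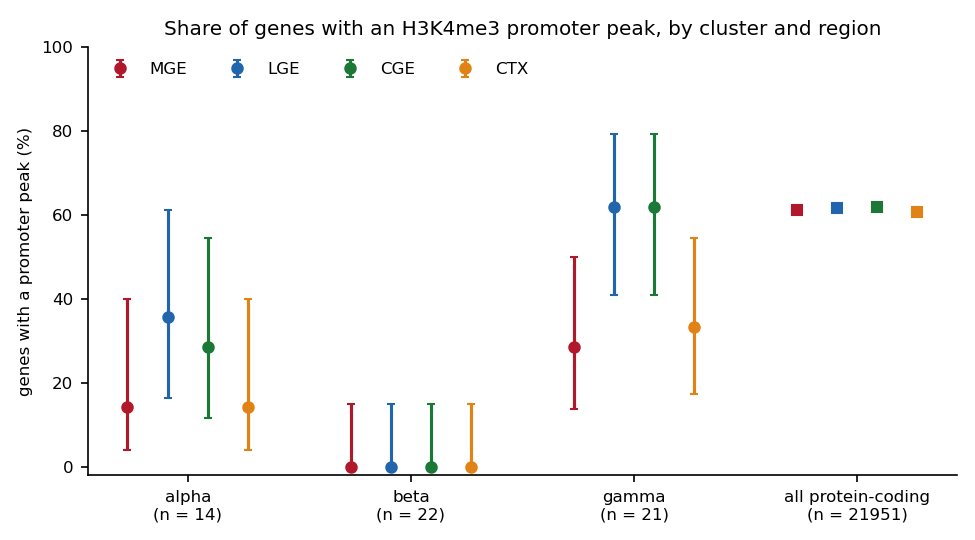
Percentage of genes with an H3K4me3 promoter peak (vertical axis) in the alpha, beta and gamma clusters and among all 21951 protein-coding genes, coloured by region. Bars are Wilson 95% intervals for counting error. Beta lies at 0 in every region, and gamma reaches 61.9% in LGE and CGE but 28.6% in MGE and 33.3% in CTX.

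In every list beta had the lowest and gamma the highest share of marked promoters, but the Wilson intervals of alpha and gamma overlapped. No beta promoter was marked in any region, 0 of 22, with an upper Wilson bound of 14.9%. In the alpha cluster 5 of 14 members were marked in LGE (35.7%, 16.3 to 61.2) and 4 in CGE (28.6%, 11.7 to 54.6). In MGE and CTX 2 each were marked (14.3%, 4.01 to 39.9). The shares of all protein-coding genes were 61.6% (LGE), 61.9% (CGE), 61.1% (MGE) and 60.6% (CTX). In the gamma cluster 13 of 21 were marked in LGE and 13 in CGE (61.9% each, 40.9 to 79.2), 7 in CTX (33.3%, 17.2 to 54.6) and 6 in MGE (28.6%, 13.8 to 50). The 6 in MGE fell to 3 without peaks of a −log10 q under 2, and to 3 at equal list length. The 2 alpha members stayed marked under both settings, leaving alpha and gamma with equal shares in MGE. The gamma cluster in LGE and CGE was therefore the one case in which the share of marked members lay at the level of all protein-coding genes.

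The gamma cluster holds A and B subfamilies, whose genes are interspersed along the array. Of 12 gamma A members, 9 were marked in LGE and 9 in CGE (75.0% each, 46.8 to 91.1), intervals that cover the 61.6% and 61.9% of all protein-coding genes. In MGE and CTX 3 were marked (25.0% each, 8.89 to 53.2), beside 61.1% and 60.6%. The 3 in MGE fell to 0 under the same settings. Of 6 gamma B members, 1 was marked in MGE (16.7%, 3.01 to 56.4) and 2 in each of the other lists (33.3%, 9.68 to 70.0). The first interval lay below the 61.1% of all protein-coding genes, and the second covered their share. The intervals of the subfamilies overlapped in every list, and in CTX the gamma B share was the higher. Without the C-type genes, the alpha cluster had no marked promoter in MGE or CTX (0 of 12, upper bound 24.2%). It had 3 of 12 in LGE (25.0%, 8.89 to 53.2) and 2 of 12 in CGE (16.7%, 4.70 to 44.8). These intervals lay below the shares of all protein-coding genes.

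**Figure D2:**
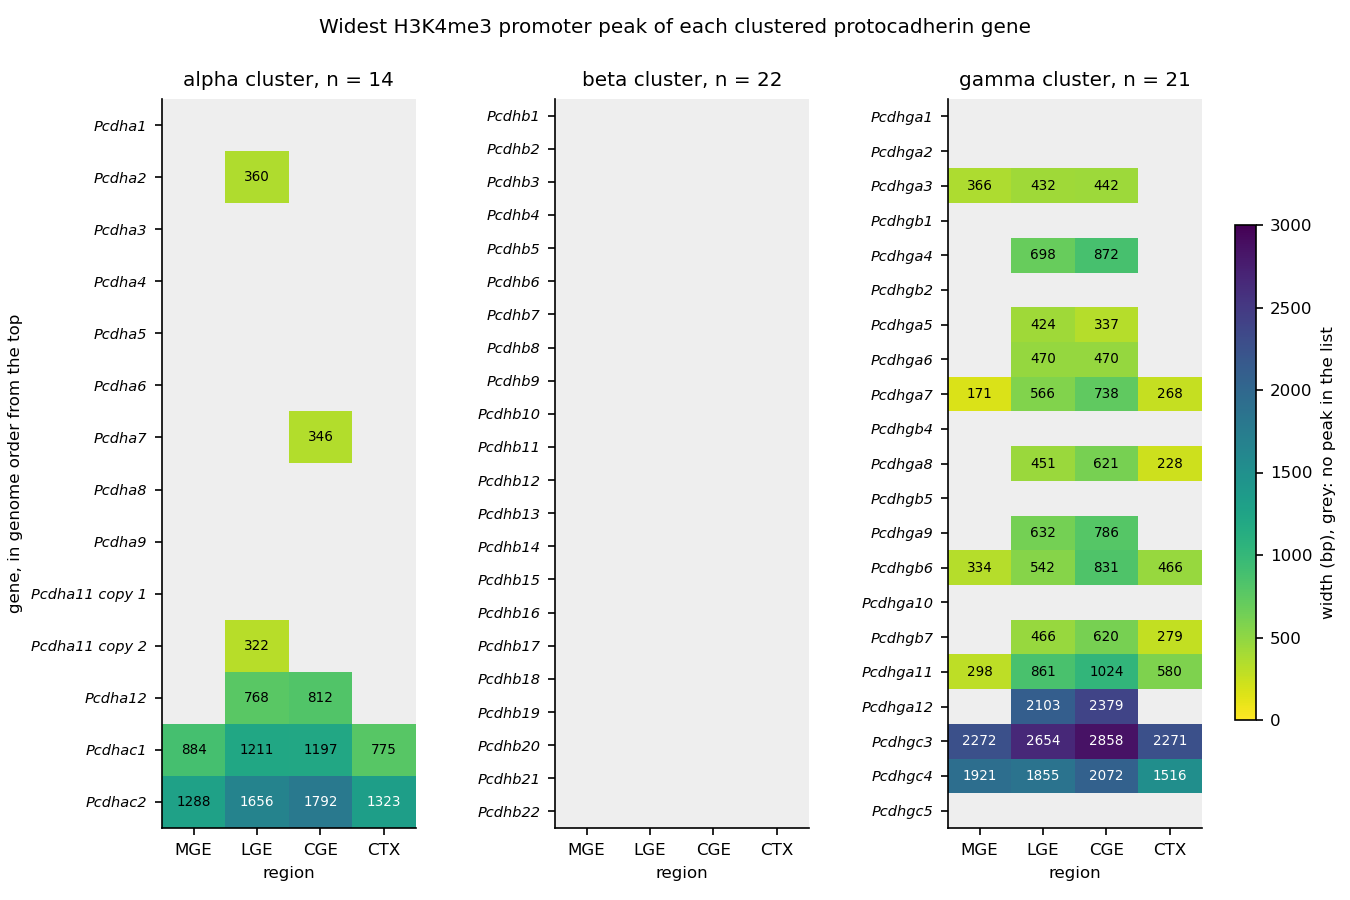
Width in bp of the widest H3K4me3 promoter peak for all 57 members (rows, in genome order within each cluster) in the 4 lists (columns); grey means that the list holds no peak there. The widest peak of every list sits at Pcdhgc3, the beta panel is empty, and 9 of 12 gamma A members have entries under LGE and CGE, 5 of them under these lists only.

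Of the 5 C-type genes, 4 had a promoter peak in every list (80.0%, Wilson 95% interval 37.6 to 96.4), an interval that covers the 58.6% of all protein-coding genes marked in all 4 lists. Pcdhac1, whose transcription starts at position 37090013, had peaks of 884 bp (MGE), 1211 bp (LGE), 1197 bp (CGE) and 775 bp (CTX). Pcdhac2, the last alpha gene, had peaks of 1288, 1656, 1792 and 1323 bp in the same order, with −log10 q values of 15.4, 89.2, 241 and 13.6. Both alpha C-type promoters were thus marked in all 4 regions, and they were the only alpha members marked in MGE or CTX. Pcdhgc3 had the widest peak of any member in every list, 2272 bp (MGE), 2654 bp (LGE), 2858 bp (CGE) and 2271 bp (CTX). These widths stood at the 98.1, 95.5, 95.9 and 97.6 percentiles of the widest promoter peaks of all marked protein-coding genes of the same list. Pcdhgc4 had peaks of 1921, 1855, 2072 and 1516 bp, the second widest in MGE and CTX, while Pcdhga12 was wider in LGE and CGE. Pcdhgc5, the last gamma gene, had no promoter peak in any list and was the only C-type gene without one.

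Apart from the C-type genes, 3 gamma members were marked in all 4 regions. Pcdhga7 had peaks of 171 bp (MGE), 566 bp (LGE), 738 bp (CGE) and 268 bp (CTX). Pcdhgb6 had peaks of 334, 542, 831 and 466 bp, and Pcdhga11 of 298, 861, 1024 and 580 bp. All 3 were narrowest in MGE and widest in CGE. In all, 7 members (12.3%) were marked in all 4 lists, beside 58.6% of all protein-coding genes. With peaks of −log10 q of at least 2 only, or with equal list length, gamma members marked in all 4 lists fell from 5 to 3. Pcdhga7 and Pcdhga11 lost their MGE peaks (−log10 q 1.52 and 1.71) under both settings, and Pcdhgb6 kept its MGE peak (3.41).

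At 3 further gamma genes a peak was missing from 1 list, a pattern seen at 2.00% of all protein-coding genes. Pcdhga3 was marked in MGE (366 bp), LGE (432 bp) and CGE (442 bp) and not in CTX. Pcdhga8 was marked in LGE (451 bp), CGE (621 bp) and CTX (228 bp), and Pcdhgb7 in LGE (466 bp), CGE (620 bp) and CTX (279 bp), and neither had a peak in MGE. A peak in all lists but MGE was found at 0.692% of all protein-coding genes, and in all lists but CTX at 0.998%. Pcdhga3 was the only member marked in MGE and not in CTX, and its MGE peak (−log10 q 1.64) was lost without peaks of a −log10 q under 2 and at equal list length. The CTX peak of Pcdhga8 was lost when peaks under 243 bp were left out, and that of Pcdhgb7 at equal list length.

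The most frequent partial pattern was a peak in LGE and CGE only, found at 6 members, beside 0.724% of all protein-coding genes. Pcdha12 had peaks of 768 bp (LGE) and 812 bp (CGE). Pcdhga4 had 698 and 872 bp, Pcdhga5 424 and 337 bp, Pcdhga6 470 and 470 bp, and Pcdhga9 632 and 786 bp. Both Pcdhga5 peaks had a −log10 q under 2 (1.88 in LGE and 1.54 in CGE), so that gene lost both calls under that filter. Pcdhga12 stood apart from these with 2103 bp (LGE) and 2379 bp (CGE), at the 87.7 and 90.7 percentiles of width. Its fold enrichment was 3.95 and 3.77, so the peaks were broad and low. Of these peaks, 816 bp (LGE) and 866 bp (CGE) lay in the promoter window. Pcdhga12 lost both calls when 50% of the peak or window had to be covered.

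Single-list peaks were found at 3 alpha genes and at no gamma gene, beside 1.80% of all protein-coding genes. Pcdha2 was marked in LGE (360 bp, −log10 q 1.45), Pcdha11 copy 2 in LGE (322 bp, −log10 q 3) and Pcdha7 in CGE (346 bp, −log10 q 2.22). Pcdha2 lost this call, its only one, without peaks of a −log10 q under 2. The 3 peaks differed little in width. All 3 were narrow, and the lowest −log10 q of any peak was 1.02 in LGE and 1.04 in CGE.

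The remaining 38 members (66.7%) had no peak in any list, beside 36.2% of all protein-coding genes. They were all 22 beta genes, from Pcdhb1 to Pcdhb22, the alpha genes Pcdha1, Pcdha3, Pcdha4, Pcdha5, Pcdha6, Pcdha8, Pcdha9 and Pcdha11 copy 1, and the gamma genes Pcdhga1, Pcdhga2, Pcdhgb1, Pcdhgb2, Pcdhgb4, Pcdhgb5, Pcdhga10 and Pcdhgc5. In both the alpha and gamma clusters the first gene of the array was unmarked, as was the last gamma gene, Pcdhgc5. Genes toward the far end tended to be marked in more lists. The rank correlation of position with the number of lists marked was 0.63 over the 14 alpha genes and 0.39 over the 21 gamma genes, as a description over genes that share the same 4 lists.

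The regional lists overlapped to different degrees at these genes. All 8 members marked in MGE were also marked in LGE and CGE, as is near the background, since 2.01% of all genes marked in MGE were unmarked in LGE and 1.87% in CGE. MGE and CTX each held members the other lacked, 1 of 8 in MGE (beside 3.12% of genes marked in MGE) and 2 of 9 in CTX (beside 2.35% of genes marked in CTX). The 1 in MGE was Pcdhga3, and without peaks of a −log10 q under 2, or at equal list length, all 5 members left in MGE were also marked in CTX. CTX held 9 members under the first of these settings and 8 under the second, so more of them than before were unmarked in MGE. Of the 18 members marked in LGE, 10 (55.6%) were not marked in MGE, beside 2.80% of all genes marked in LGE. Of the 17 marked in CGE, 8 (47.1%) were not marked in CTX, beside 3.70% of all genes marked in CGE. LGE and CGE shared 16 members. Pcdha2 and Pcdha11 copy 2 were listed in LGE and not in CGE (beside 0.873% of genes marked in LGE), and Pcdha7 in CGE and not in LGE (beside 1.39% of genes marked in CGE). The Pcdha2 call was lost without peaks of a −log10 q under 2.

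The LGE and CGE lists also differed from the MGE and CTX lists across the genome. The median −log10 q at marked protein-coding promoters was 19.4 (MGE), 65.7 (LGE), 140 (CGE) and 23 (CTX), and the shortest peak was 114 bp (MGE), 243 bp (LGE), 242 bp (CGE) and 122 bp (CTX). Region and list strength cannot be told apart here.

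Peaks at marked members were narrower than those at other genes. The median widest peak was 625 bp (MGE), 599 bp (LGE), 812 bp (CGE) and 580 bp (CTX), beside 974, 1333, 1418 and 1016 bp for all marked protein-coding genes. Ranked within their own list, the members had a median width percentile of 23.3 (MGE), 3.87 (LGE), 6.77 (CGE) and 13 (CTX). The C-type genes lay apart, with median percentiles of 84.8, 76, 79 and 78.8. Among gamma genes other than C-type the median width was 316 bp (MGE, 4 genes), 542 bp (LGE, 11), 738 bp (CGE, 11) and 279 bp (CTX, 5). Because a filter at −log10 q of 2 or equal list length removed narrow MGE peaks, the MGE median rose to 1288 bp under either, so that the direction in MGE rests on 3 narrow peaks.

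**Figure D3:**
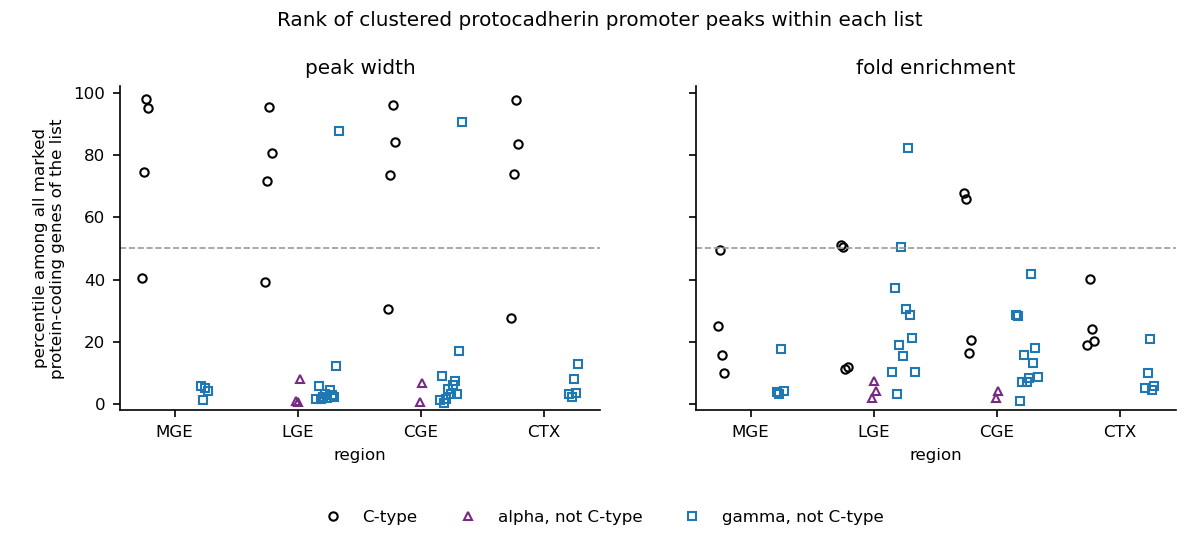
Percentile of peak width (left) and of fold enrichment (right) of each marked member among all marked protein-coding genes of the same list, by region; each symbol is 1 gene and the dashed line marks the 50 percentile. Most C-type genes lie above the line for width, and other members lie near the bottom except Pcdhga12 at 87.7 in LGE and 90.7 in CGE.

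Fold enrichment over the caller's background was low as well, with medians of 4.25 (MGE), 4.49 (LGE), 4.5 (CGE) and 4.77 (CTX), beside 6.42, 6.25, 6.64 and 6.57 for all marked genes. The corresponding median percentiles were 13, 17.2, 15.8 and 18.9. For protocadherins outside the clusters these percentiles were 19.2, 4.65, 9.28 and 10.2, and for cadherins 20.5, 30.2, 39.7 and 23.7. Low fold was therefore not particular to the clustered genes. Pcdhgb6 had the highest fold of any member in LGE, 7.98, from a peak of 542 bp. Unlike its width, the fold enrichment of Pcdhgc3 was low, at 4.45, 4.04, 4.56 and 5.06 in MGE, LGE, CGE and CTX. These values stood at the 15.9, 11.2, 16.4 and 24 percentiles of all marked genes.

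Where members were marked in 2 lists, the rank correlation of their widths ran from 0.786 (MGE and LGE, 8 members) to 0.965 (LGE and CGE, 16 members) over the 6 pairs of lists. Of the 16 marked in both LGE and CGE, 13 were wider in CGE. All 8 members marked in both MGE and CGE were wider in CGE, and none of the 9 marked in both LGE and CTX was wider in CTX. These directions match those of the lists as a whole, in which the median peak width was 563 bp (MGE), 1168 bp (LGE), 1240 bp (CGE) and 701 bp (CTX). MGE and CTX, whose lists had more alike widths, shared 7 members, of which 4 were wider in CTX.

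The peaks lay almost wholly downstream of the start, over the variable exon. The upstream edge of the widest peak was at a median of −68 bp (MGE), −3 bp (LGE), −6 bp (CGE) and −52 bp (CTX) from the first annotated start. For all marked protein-coding genes these medians were −208, −295, −328 and −219 bp. The median share of the peak that lay downstream of the start was 92.9% (MGE), 99.5% (LGE), 98.5% (CGE) and 91.4% (CTX), beside 76.9%, 76.4%, 75.4% and 76.8%. An upstream edge no more than 100 bp before the start was found at 5 of 8 members (MGE), 15 of 18 (LGE), 13 of 17 (CGE) and 6 of 9 (CTX). The same held for 30.6%, 26.0%, 23.1% and 29.5% of all marked genes, and for 25.1%, 21%, 16.7% and 24.3% of those with a single annotated start. Pcdhac1, Pcdhgc3 and Pcdhgc4 began further upstream in every list, Pcdhgc4 the farthest with edges between −633 and −724 bp, and Pcdhgb6 did so in CGE (−105 bp).

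**Figure D4:**
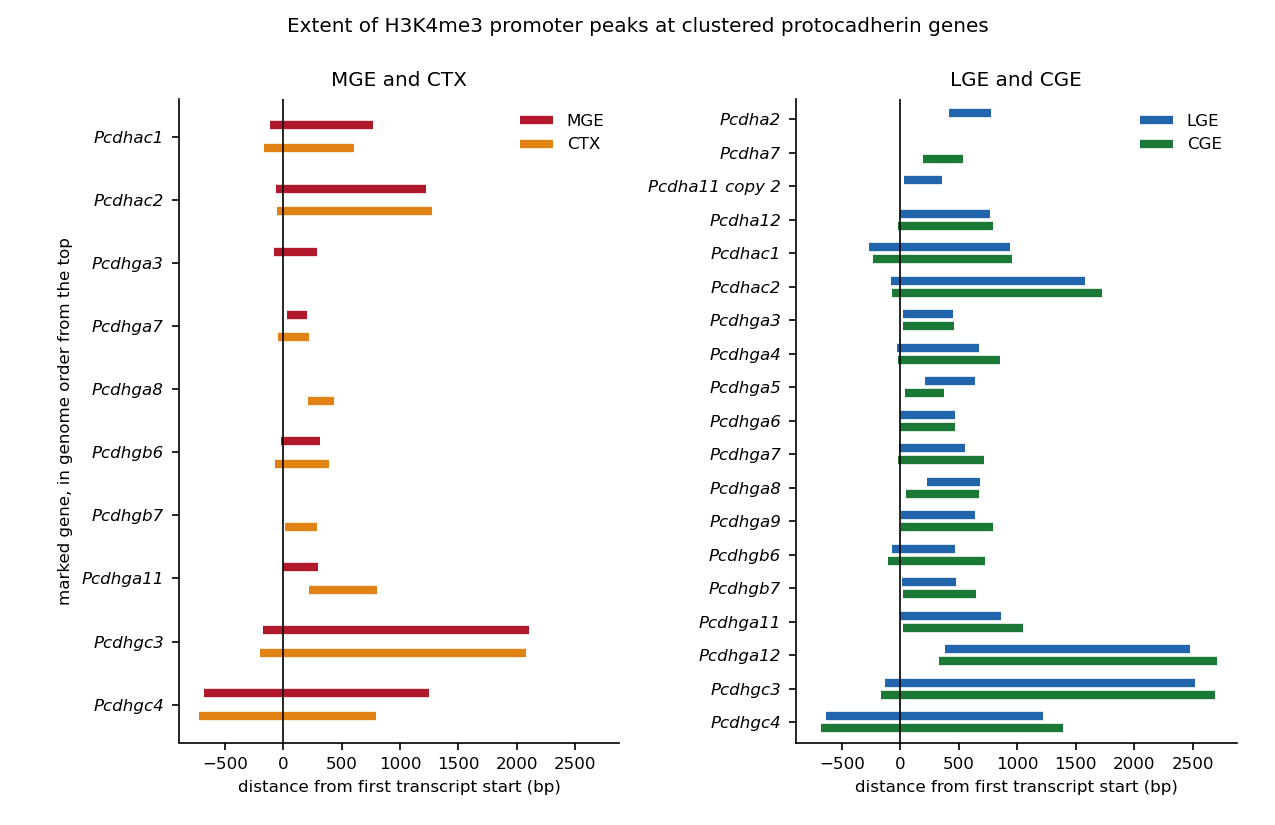
Extent of the widest promoter peak of each marked member relative to the first annotated transcript start (vertical line at 0; positive is downstream, in bp), for MGE and CTX (left) and LGE and CGE (right). Most bars begin after the start or no more than 100 bp before it and run into the gene. Pcdhgc4 begins between −633 and −724 bp.

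All of these peaks also ended inside the first exon of their gene, at 8 of 8 members (MGE), 18 of 18 (LGE), 17 of 17 (CGE) and 9 of 9 (CTX). That exon is long, with a median of 2494 bp in alpha (2346 to 3323) and 2608 bp in gamma (2542 to 3380). Even the CGE peak of Pcdhgc3, which reached 2693 bp past the start, and that of Pcdhga12, which reached 2706 bp, stayed within it. Some peaks covered starts of antisense or overlapping transcripts, namely BC037039 at Pcdhgc3, Gm26672 at Pcdhga11 and Pcdhga12, Gm37165 at Pcdhga8 and Gm10545 at Pcdha12. At Pcdhga8 and Pcdhga12 in every list that marked them, and at Pcdhga11 in CGE and CTX, the peak covered no start of the member. The mark at these promoters cannot be assigned to 1 strand.

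A few peaks in and beside the arrays touched no member promoter. Near the end of the alpha span all 4 lists held peaks between positions 37176949 and 37178970, over the start of the antisense transcript Gm10544 and short of the last alpha constant exon (37184946 to 37187657). All 4 lists held a peak between the alpha and beta clusters, of 1172 bp (MGE, 37217236 to 37218407), 1124 bp (LGE), 1134 bp (CGE) and 1211 bp (CTX), under which GENCODE M21 has no transcript start. The lists also shared a peak at the end of the gamma cluster, over the last constant exon and beyond it, of 1306 bp (MGE, 37841513 to 37842818), 1380 bp (LGE), 1694 bp (CGE) and 820 bp (CTX). The first gamma constant exon (37825021 to 37825079) lay under a peak in MGE (128 bp), LGE (962 bp) and CGE (1408 bp) and not in CTX. No alpha constant exon had a peak in any list. Pcdhgb8, annotated as a polymorphic pseudogene and so outside the rule, had a peak of 601 bp (LGE) and 502 bp (CGE) and none in MGE or CTX, the same lists as its neighbour Pcdhga12.

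The beta cluster lay in the middle of a stretch without any peak in any list, from position 37218408 to 37674231 (456 kb). The stretch began at the shared peak between alpha and beta and ended at Pcdhga3. It held 26 protein-coding genes: the 22 beta genes, Pcdhga1, Pcdhga2, Slc25a2 and Taf7, a subunit of the general transcription factor TFIID. Of the 29763 stretches without a peak in the genome, 926 (3.11%) were longer, and the median was 29.4 kb. Numbers in the peak names are not continuous in the lists, but no gap lies inside the 3 clusters or across this stretch. The authors removed reads in blacklisted regions, and whether any such region lies here was not tested.

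Promoter sequence differed between the clusters in CpG content, a property that accompanies H3K4me3 at mammalian promoters. Over 1 kb either side of the start, the observed over expected CpG ratio had a median of 0.641 in alpha (0.520 to 0.702), 0.334 in beta (0.138 to 0.475) and 0.513 in gamma (0.251 to 0.820). For all protein-coding genes marked in any list the median was 0.606, and for those marked in none 0.173. The beta median lay between these medians, and the alpha median above both. Pcdhgc3 had the highest ratio of the family (0.820), and Pcdhgc5, the unmarked C-type gene, the lowest of the gamma cluster (0.251).

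Within a cluster, the CpG ratios of marked and unmarked members overlapped. The 13 marked gamma genes had a median ratio of 0.501 and the 8 unmarked ones 0.517. The 6 marked alpha genes had 0.664 and the 8 unmarked ones 0.589. Over all 3 clusters, 19 of 57 members were marked in any list, beside 63.8% of all protein-coding genes. Among members with a ratio from 0.4 to 0.6, 9 of 22 were marked in any list, beside 90.5% of protein-coding genes in the same range. From 0.6 to 0.8 it was 9 of 14 members, beside 96.4%, and from 0.2 to 0.4 it was 0 of 19, beside 41.2%. In each of these ranges the share of marked members lay below that of genes of like CpG content, and this was not tested. Taf7, with a ratio of 0.795, was likewise unmarked.

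**Figure D5:**
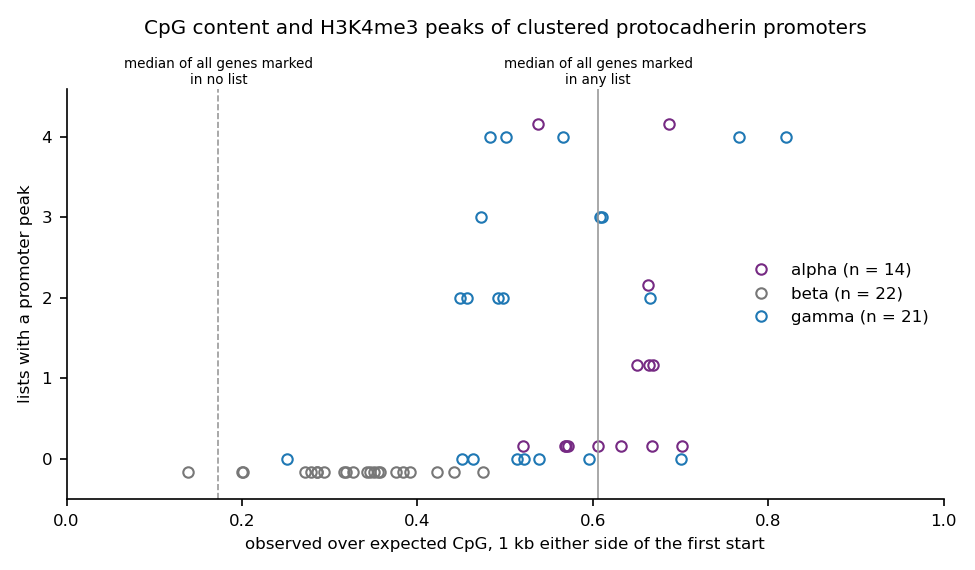
Observed over expected CpG ratio of each member promoter (horizontal axis) against the number of lists with a promoter peak (vertical axis; points of the 3 clusters are offset slightly for legibility). Vertical lines are the medians of all protein-coding genes marked in no list (0.173, dashed) and in any list (0.606, solid); beta points lie at 0 lists below a ratio of 0.475 or at it, and alpha points spread from 0 to 4 lists at similar ratios.

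The CpG ratio was higher in the 1 kb after the start than in the 1 kb before it at 50 of 57 members (87.7%), beside 70.9% of all protein-coding genes. It was so at all 14 alpha and all 21 gamma genes and at 15 of 22 beta genes. The tetramer CGCT forms the core of the element shared by many protocadherin promoters. It was counted on either strand between 250 bp before and 50 bp after the start, without the bases around it. A match was found at 55 of 57 members (96.5%), beside 67.1% of all protein-coding genes and 85.6% of those marked in any list. Such a match alone does not show the element. The 2 without a match were Pcdhb22, which was unmarked, and Pcdhga12, which was marked in LGE and CGE.

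Similar exon sequences could hamper the placement of reads. The share of 50 bp words of a promoter window that also occur elsewhere in the genome had a median of 8.12% in alpha, 0 in beta and 0 in gamma, and the highest value was 17.9%, at Pcdha7. The rank correlation of this share with the number of lists marked was −0.15 over the 57 members, −0.34 within alpha and −0.16 within gamma. Of the 22 beta windows, 10 held such words, up to 13.1% of a window. Whether reads could be placed at each promoter was not tested.

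Other gene lists were set beside the 58.6% of all protein-coding genes that were marked in all 4 lists. Of 12 protocadherins that lie outside the clusters, 11 were marked in all 4 lists and Pcdh12, an endothelial member, in none. Their median widest peak was 1107 bp (MGE), 3465 bp (LGE), 3663 bp (CGE) and 1405 bp (CTX). Of 23 cadherins, 16 (69.6%) were marked in all 4 lists, near that background, Cdh15 in MGE only (138 bp) and Cdh9 in CGE only (309 bp), and 5 in none. Promoters of 18 genes for factors that act on protocadherin promoters, among them Ctcf, the cohesin subunits Rad21 and Smc3, the silencing factor Smchd1 and the methyltransferase Dnmt3b, were marked in all 4 lists. Olfactory receptors, another tandem family in which each cell chooses few members, had 6 of 1093 promoters marked in CTX, 5 in MGE, 2 in CGE and 1 in LGE. Of 34 other protein-coding genes within 500 kb of the clusters, 21 (61.8%) were marked in all 4 lists, also near the background, and Arap3, a regulator of small GTPases, in MGE and LGE only.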

How the data were processed

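H3K4me3 CUT&Tag libraries were aligned by the authors with Bowtie2 to GRCm38/mm10, cleared of reads in blacklisted regions and of PCR duplicates (Picard), merged over replicates with SAMtools and used for broad peak calls with MACS (version, threshold and control not given in the sources used here). The deposited lists have 9 columns; used here were the authors' fold enrichment (a ratio to the caller's background) and −log10 q. The deposited −log10 p and the display score of each peak were not used. Lists differ in depth, so fold enrichment was ranked within lists only.

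Members, gene lists and comparisons were chosen with earlier results of these data known. Starts came from GENCODE M21 and base composition from the GRCm38 genome, whose sequence is not printed. Named were the C-type genes, the ends of each cluster, the member with the widest peak per list and cluster, and every member marked in 1 to 3 lists or none. Counts and medians used Python 3.11.15 and numpy 2.4.6, and matplotlib 3.10.9 drew the plots. The overlap, coverage and interval code was tested on simulated data. Alternatives were windows of 500 bp and 2 kb, the gene 5′ end only, 50% overlap, −log10 q of at least 2, equal list length and, added after seeing the data, equal shortest width.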

Additional observations from a re-analysis of the deposited data

How the results depend on the processing

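Of 56 counts under the alternatives, 52 stayed within 1.5 times the reported value. The others were the members marked in MGE, which fell from 8 to 5 with a −log10 q of at least 2 and to 5 with equal list length, and the gamma members marked in all 4 lists, which fell from 5 to 3 under each. The MGE loss lay in the gamma cluster, 6 to 3, and in its A subfamily, 3 to 0, under both settings. The beta count of members marked in all 4 lists was 0 under every setting run. Of 16 median widths, 11 were unchanged. With a −log10 q of at least 2 the median became 1288 bp (MGE), 665 bp (LGE) and 822 bp (CGE), and with equal list length 1288 bp (MGE) and 678 bp (CTX). Leaving out peaks under 243 bp, chosen after seeing the data, gave 7 members in MGE and 8 in CTX and took 27.6% of MGE and 19.4% of CTX peaks. No paired analysis was possible because each region was deposited as 1 merged list, and no replicate could be left out for the same reason. Depth differed between regions and read numbers per peak are unknown, so a promoter without a listed peak is not shown to lack the mark.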
